A study of Homo sapiens with 12 samples.

Results

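Type I interferon-stimulated antiviral genes were followed in the RNAseq profiles of HCT116 and SW480 colon cancer cells that overexpress an isoform of CD44. The set held 48 genes, chosen by symbol from genes known to be switched on by interferon and to act against viruses, and all 48 were among the 62426 genes of the count table. They were ordered by role into 9 sensors, 8 signal transducers, 4 genes of ISG15 conjugation, 10 RNA-directed effectors, 9 membrane and trafficking effectors and 8 other effectors. HCT116 and SW480 are established human colon cancer lines, HCT116 of the microsatellite-instable and SW480 of the chromosomal-instable type. In each line, CD44s-OE cells (standard isoform, without variable exons), CD44v6-OE cells (isoform with variable exon v6) and parental cells were profiled, with 2 polyA RNA libraries per group and 12 in all. The OE cells had been stably transfected with a plasmid carrying the isoform and selected with Geneticin, and the controls were parental cells. No cells with an empty plasmid were analysed here, so CD44, the plasmid and the selection cannot be told apart. The labels do not say that the 2 libraries of a group came from separate cultures, so p-values measure only the spread between these libraries, which may be technical. The count columns of the OE libraries carry the word POOL before their number and those of parental libraries do not, and its meaning is not given in the sources used here.

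Type I interferons bind the receptor pair IFNAR1 and IFNAR2, and type III interferons (interferon lambda) bind IFNLR1 with IL10RB. Both receptors pass their signal through the kinases JAK1 and TYK2 to the complex ISGF3, which holds STAT2 and IRF9. This complex binds a short promoter element, the interferon-stimulated response element (ISRE), in front of the antiviral genes. The gene products then sense viral RNA or DNA, tag proteins with ISG15, block or degrade viral RNA, or hold virus at membranes. Many of the sensors and transducers are themselves interferon-stimulated, so the pathway can feed its own output. Epithelial cells of the gut are known to respond to interferon lambda.

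Promoter sequence was read for the members first, because a shared element is the feature through which these genes are known to be controlled. RefSeq promoters of build GRCh38.p14, from 250 bases before to 50 bases after the start, were given for 39 of the 48 members, as 54 promoters of which some overlap. The letters GAAANNGAAA, the core of the ISRE, were found on either strand in 33 of the 54 promoters (61.1%), against 1255 of all 35116 promoters (3.57%). The centres of the 55 matches lay between 191 bases before and 16 bases after the start (offsets -191 and 16, median -75), and 32 lay in the 100 bases before it. The letters TTCNNNGAA of the gamma-activated site (GAS), which read alike on both strands, were found in 13 of the 54 promoters (24.1%), against 7.66% of all promoters. Of the 39 members, 28 had an ISRE match in at least 1 promoter. The 200 bases before the start are given for 6 members that carry the results, 5 with a match and 1 without, from 5′ to 3′ of the gene's strand with every ISRE match in capitals. They are IFI44L (chr1:78620248-78620447, plus strand), DDX60 (chr4:168318753-168318952, minus), ISG15 (chr1:1013297-1013496, plus), IFIT1 (chr10:89392423-89392622, plus), HERC5 (chr4:88456919-88457118, plus) and SAMD9L (chr7:93148386-93148585, minus).
IFI44L: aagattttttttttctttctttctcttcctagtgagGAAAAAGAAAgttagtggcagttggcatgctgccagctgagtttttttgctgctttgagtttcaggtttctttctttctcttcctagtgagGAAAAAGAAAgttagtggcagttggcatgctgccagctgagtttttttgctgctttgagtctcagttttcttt
DDX60: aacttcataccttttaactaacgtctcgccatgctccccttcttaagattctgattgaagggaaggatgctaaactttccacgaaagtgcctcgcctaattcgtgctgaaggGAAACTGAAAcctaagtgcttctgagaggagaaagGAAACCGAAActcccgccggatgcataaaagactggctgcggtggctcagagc
ISG15: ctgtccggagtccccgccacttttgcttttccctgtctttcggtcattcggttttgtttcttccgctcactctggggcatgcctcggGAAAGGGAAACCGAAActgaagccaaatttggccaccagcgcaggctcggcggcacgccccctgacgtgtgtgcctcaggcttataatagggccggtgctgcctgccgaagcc
IFIT1: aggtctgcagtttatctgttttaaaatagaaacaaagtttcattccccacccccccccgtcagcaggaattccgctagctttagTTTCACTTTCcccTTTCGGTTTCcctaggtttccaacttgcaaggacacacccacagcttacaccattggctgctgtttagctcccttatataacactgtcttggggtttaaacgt
HERC5: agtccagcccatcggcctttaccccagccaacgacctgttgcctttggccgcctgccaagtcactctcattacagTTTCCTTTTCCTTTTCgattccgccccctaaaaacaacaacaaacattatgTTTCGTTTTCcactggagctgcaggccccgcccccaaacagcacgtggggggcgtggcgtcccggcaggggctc
SAMD9L: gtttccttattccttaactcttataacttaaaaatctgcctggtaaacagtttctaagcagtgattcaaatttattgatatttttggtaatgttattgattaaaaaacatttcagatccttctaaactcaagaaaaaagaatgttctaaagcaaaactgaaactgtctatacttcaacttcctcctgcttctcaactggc
In IFI44L the same match stood at offsets -159 and -68, and in ISG15 matches at -108 and -102 shared bases. DDX60 had matches at -83 and -48, IFIT1 at -111 and -98 on the opposite strand, and HERC5 at -120, -114 and -69 on the opposite strand. A match is a string of letters and does not show binding, and no match, as in SAMD9L, says only that these letters were not in this window.

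Total counts were 43102156 to 52811889 per library, and a count of 0 allowed up to 6 counts (3 read pairs), or a depth-normalised count of 0.114 to 0.139 CPM, for counting error only. CD44 was at 578 and 514 CPM in the HCT116 CD44s-OE libraries, 504 and 504 CPM in CD44v6-OE and 546 and 557 CPM in parental cells. Its row sums all isoforms, and no OE group differed from its parental cells (adjusted p of 0.575 to 0.959 over both lines, edgeR), so this gene does not check the labels of the OE libraries. The antisense gene CD44-AS1 had 97 to 177 counts in the 4 libraries labelled CD44v6-OE and 0 to 3 counts in the other 8. Summed colon epithelial markers stood between 6450 and 9083 CPM in HCT116 and between 8295 and 19023 CPM in SW480, and CDX1, one of the 12 on that list, had 0 to 3 counts in every library. The leukocyte list summed to between 1.90 and 9.72 CPM and the endothelial list to 2.14 CPM at most.

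Several members lie side by side in the hg19 gene models behind the counts. IFIT2 (ENSG00000119922), IFIT3 (ENSG00000119917), IFIT1 (ENSG00000185745) and IFIT5 (ENSG00000152778) span chromosome 10 from 91043451 to 91180754. SAMD9 (ENSG00000205413) and SAMD9L (ENSG00000177409) lie on chromosome 7 from 92728826 to 92777698, and IFI44L (ENSG00000137959) and IFI44 (ENSG00000137965) on chromosome 1 from 79085607 to 79129763. DDX60 (ENSG00000137628) lies on chromosome 4 from 169137445 to 169239955, ISG15 (ENSG00000187608) on chromosome 1 from 936518 to 949920 and PLAAT4 (ENSG00000133321) on chromosome 11 from 63304280 to 63313934. Neighbours are separate genes in the table, and the values are sums over all exons of each gene.

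The 2 HCT116 libraries labelled CD44s-OE stood apart from each other in these genes. Of the 43 members with a mean of at least 1 CPM there, 43 were higher in library 1 than in library 2, by a median of 1.77 on the log2 scale, and 30 differed by more than 2-fold. Over all 13340 genes at that level, 52.5% were higher in library 1 and 4.84% differed by more than 2-fold. The 2 HCT116 CD44v6-OE libraries had a median absolute difference of 0.06 (log2) over 45 members, and 0 of the 45 differed by more than 2-fold. The members' summed level was 8506 and 2770 CPM in CD44s-OE cells, 5249 and 5096 CPM in CD44v6-OE and 2016 and 2195 CPM in parental HCT116. CD44s-OE library 1 was thus the highest of the 6 and library 2 the nearest to the parental libraries, and the counts of called members are also given without either one. In SW480 the sum lay between 1663 and 2194 CPM in all 6 libraries.

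**Figure D1:**
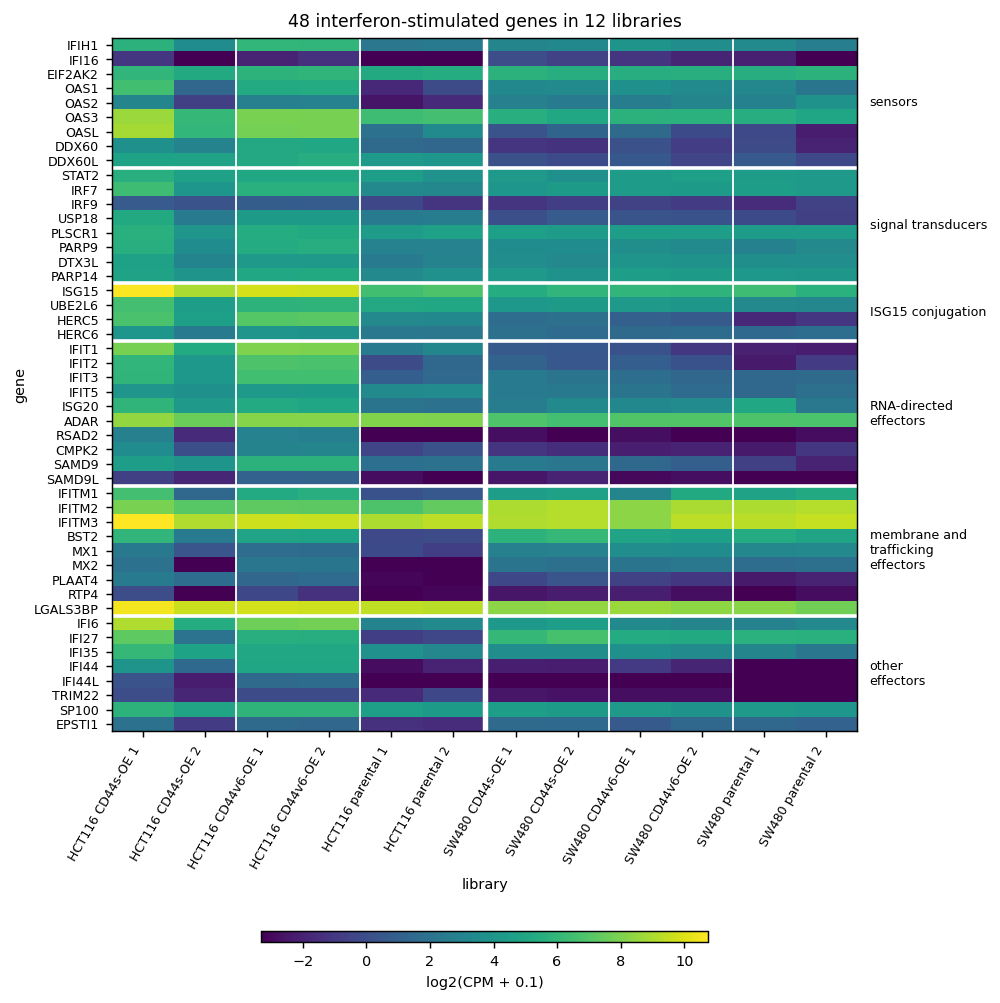
Level of each of the 48 genes (rows, grouped by role) in each of the 12 libraries (columns), as log2(CPM + 0.1) on the colour scale. HCT116 CD44v6-OE libraries and HCT116 CD44s-OE library 1 are brighter than the parental HCT116 libraries in most rows, and CD44s-OE library 2 lies between them. The 6 SW480 columns look alike in most rows.

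Per kilobase of gene, the members covered the whole range from no counts to abundant RNA in parental cells. In parental HCT116 the highest were IFITM3, a membrane protein that blocks virus entry, at 445 and 572 RPKM (CPM per kilobase of exon), and LGALS3BP, a secreted glycoprotein, at 195 and 179 RPKM. ISG15, a ubiquitin-like modifier, followed at 103 and 130 RPKM, and IFITM2 at 74.5 and 107 RPKM overlapped ISG15. In HCT116 OE cells ISG15 stood first, at 1852 and 573 RPKM in CD44s-OE cells and 1051 and 968 RPKM in CD44v6-OE. IFITM3 stood second there, at 1501 and 473 RPKM in CD44s-OE cells and 705 and 668 RPKM in CD44v6-OE, so the order of the first and second gene held in each of the 4 OE libraries. At the low end, RSAD2, MX2, IFI44L and IFI16 had 0 counts in both parental HCT116 libraries, and IFI16, a DNA sensor, was the lowest member in both HCT116 OE groups, at 0 to 0.0691 RPKM. In parental SW480, IFITM3 at 539 and 645 RPKM and IFITM2 at 335 and 384 RPKM were the highest, and SAMD9L, IFI44, IFI44L and TRIM22 had 0 counts.

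Both HCT116 OE groups had more RNA from the antiviral genes than the parental cells had. In cells labelled CD44s-OE, 13 of the 48 members rose and 0 fell, and in cells labelled CD44v6-OE 9 rose and 0 fell, where a call needed an adjusted p below 0.1 together with a log2 fold change beyond 1.5 in size (edgeR quasi-likelihood test, 17335 genes). The share of all tested genes called was 2.71% (higher) and 0.387% (lower) for CD44s-OE, and 0.738% (higher) and 0.0404% (lower) for CD44v6-OE. All 48 members had a log2 fold change above 0 in each comparison, with medians of 2.59 and 3.20 (2.37 and 3.15 with the 4 genes without parental counts set at their lower bound), against 0.04 and 0.00 over all genes. At an unadjusted p under 0.05, 34 and 35 members were higher and 0 lower. Of all 17335 genes, 4372 and 1933 passed that p in either direction. DESeq2 called 27 members higher in CD44s-OE and 28 in CD44v6-OE, and 0 lower in either, with no count made over all genes. Both comparisons used the same 2 parental libraries. In bulk RNA, more cells that express a gene and more RNA per cell cannot be told apart.

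Members with better coverage in parental cells had the same direction. SAMD9L, PLAAT4, IFI44 and IFI44L, called in both comparisons, had under 10 counts in at least 1 parental library and passed the filter through the OE libraries, so they had to differ. In parental HCT116, 39 of the 48 had at least 10 counts in both libraries, and 9 of these rose in CD44s-OE and 5 in CD44v6-OE, with median log2 fold changes of 2.05 and 2.24. The libraries of the OE group lay wholly above the parental ones for 35 members in CD44s-OE and 47 in CD44v6-OE, and wholly below for 0. Over all tested genes, 25.7% and 24.5% lay wholly above and 25.7% and 28.5% wholly below. Library by library, over the 44 members with a mean of at least 1 CPM in HCT116, CD44s-OE library 1 was above both parental libraries in 44 and library 2 in 34, and library 2 was below both in 5. CD44v6-OE libraries 1 and 2 were each above both parental libraries in 43. Median log2 ratios to the parental mean were 3.01 and 0.94 in the 2 CD44s-OE libraries and 3.18 and 2.96 in the 2 CD44v6-OE libraries, against -0.02 to -0.05 over all genes.

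**Figure D2:**
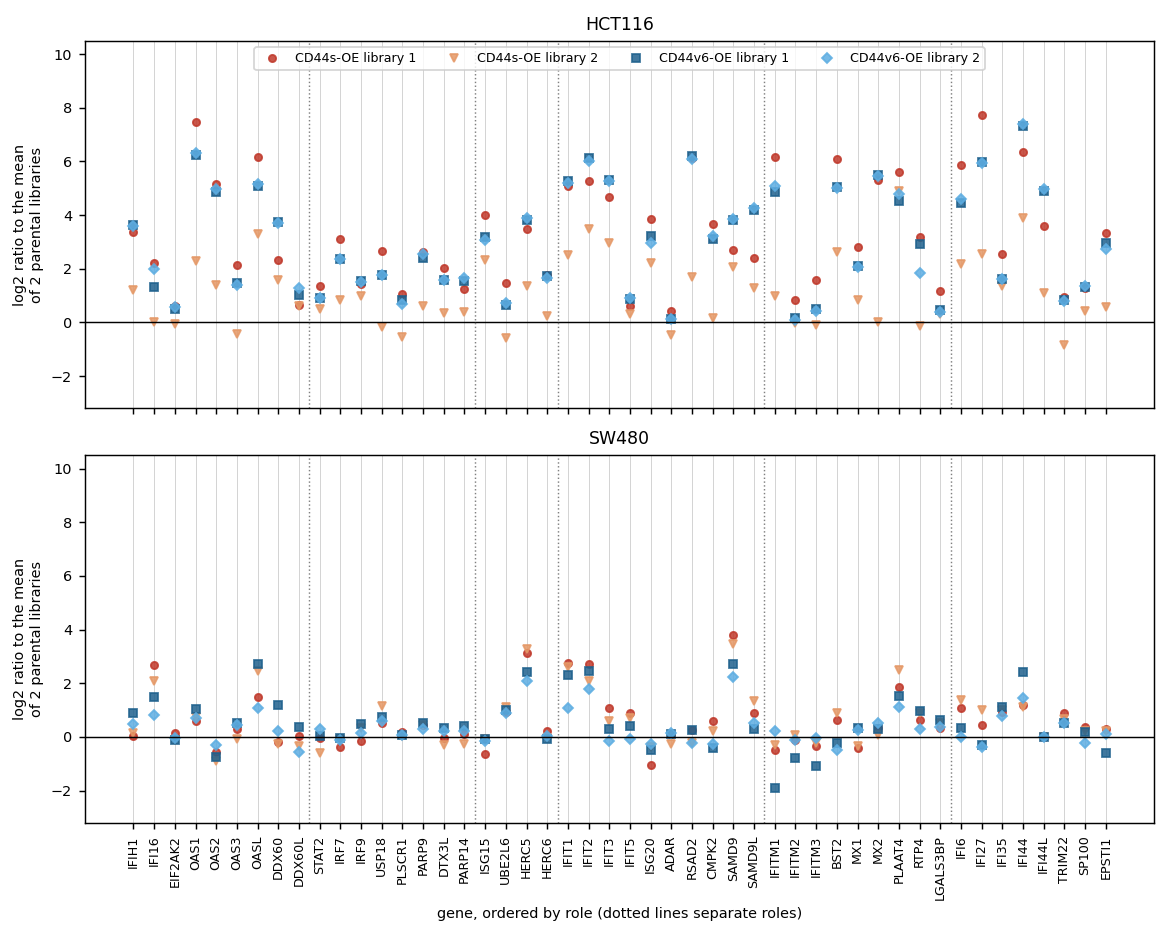
Log2 ratio of each OE library to the mean of the 2 parental libraries of its line, on log2(CPM + 0.1), for each of the 48 genes in order of role. HCT116 (upper) and SW480 (lower) share 1 scale, each symbol is 1 library and the horizontal line is the parental mean. In HCT116 both CD44v6-OE libraries and CD44s-OE library 1 lie above the line in nearly every gene, and CD44s-OE library 2 lies closer to it.

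The number of called members depended on which HCT116 library entered the fit. All 6 libraries of a line shared 1 estimate of each gene's spread, so the distance between the CD44s-OE libraries also entered the CD44v6-OE comparison. A group with 1 library left was assumed to vary like the others. Without CD44s-OE library 1, 17 members rose in CD44s-OE and 35 in CD44v6-OE, where 3.54% and 1.86% of all genes did. Without CD44s-OE library 2, 36 members rose in CD44s-OE and 34 in CD44v6-OE, where 3.70% and 1.91% of all genes did. Of the 13 members called in CD44s-OE, 10 were called without library 1 and 13 without library 2, and the 3 lost were MX1, IFI35 and EPSTI1. Without 1 of the 4 remaining libraries, fewer members rose in both comparisons than with all 6, and fewest when parental library 2 was left out. The share of all genes called higher was then also smaller in both. DDX60 and SAMD9 were called in both comparisons whichever of the 6 libraries was left out, as was PLAAT4, which had to differ by its filter.

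**Figure D3:**
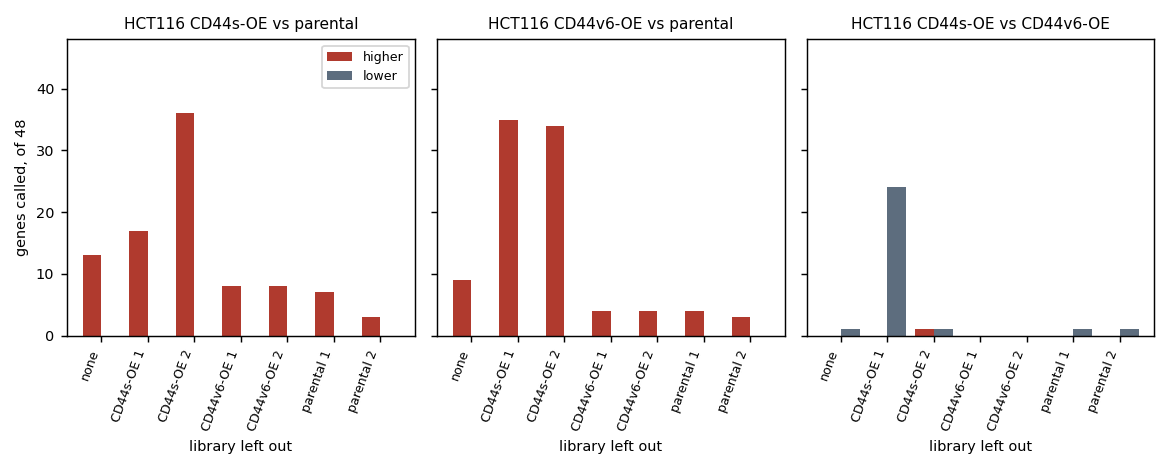
Number of the 48 genes called higher or lower in HCT116 (y axis) with no library left out and with each of the 6 HCT116 libraries left out in turn (x axis), for the 3 comparisons within the line. Leaving out either CD44s-OE library gives the tallest bars against parental cells. The comparison of CD44s-OE with CD44v6-OE has its tallest bar, of genes called lower, without CD44s-OE library 1. A group with 1 library left was assumed to vary like the others.

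Among the 9 sensors of viral nucleic acid, DDX60 alone was called in both HCT116 OE groups. DDX60, a helicase that assists the RIG-I-like receptors, had 13.2 and 7.79 CPM in CD44s-OE cells, 35.9 and 34.4 CPM in CD44v6-OE and 2.77 and 2.37 CPM in parental cells. The 3 groups did not overlap, with the CD44v6-OE libraries highest and the parental libraries lowest. Its log2 fold change was 2.05 ± 0.25 (SE, n = 2 each) in CD44s-OE (adjusted p = 0.00368, edgeR) and 3.81 ± 0.26 in CD44v6-OE (adjusted p = 0.000688). Its neighbour and paralog DDX60L passed the adjusted p under the fold threshold, with 0.67 in CD44s-OE (adjusted p = 0.0386) and 1.19 in CD44v6-OE (adjusted p = 0.0168). The 2′-5′ oligoadenylate synthetases, which activate RNase L on double-stranded RNA, had wide gaps between the CD44s-OE libraries. OAS1 had 91.2 and 2.42 CPM in CD44s-OE cells, 39.4 and 41.1 CPM in CD44v6-OE and 0.192 and 0.825 CPM in parental cells. Its 4 OE libraries were all above the parental ones, but the CD44s-OE libraries lay far from each other, and the adjusted p was 0.201 in CD44s-OE and 0.462 in CD44v6-OE. OASL, a relative without synthetase activity, had 466 and 64.5 CPM in CD44s-OE cells, 223 and 232 CPM in CD44v6-OE and 3.90 and 10.7 CPM in parental cells, and again no OE library overlapped the parental ones (adjusted p of 0.122 and 0.343). OAS2, OAS3, IFIH1 (the receptor MDA5), IFI16 and EIF2AK2 (the kinase PKR) did not pass either, with adjusted p-values of 0.107 to 0.645.

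Of the 8 signal transducers, 0 were called in CD44s-OE and 1 rose in CD44v6-OE. PARP14, an ADP-ribosyltransferase, had 27.6 and 15.3 CPM in CD44s-OE cells, 33.6 and 36.7 CPM in CD44v6-OE and 9.90 and 13.6 CPM in parental cells. The OE and parental libraries did not overlap, and PARP14 rose in CD44v6-OE by 1.62 ± 0.27 (log2, adjusted p = 0.0315), while its change of 0.89 in CD44s-OE (adjusted p = 0.0703) was under the fold threshold. STAT2, the ISGF3 subunit that carries the activation domain, had 47.1 and 26.3 CPM in CD44s-OE cells, 34.6 and 34.5 CPM in CD44v6-OE and 23.8 and 14.5 CPM in parental cells. All 4 OE libraries were above the parental ones, with log2 fold changes of 0.96 ± 0.29 (adjusted p = 0.0746) and 0.89 ± 0.29 (adjusted p = 0.277). IRF9, the DNA-binding subunit of ISGF3, had 1.55 and 1.09 CPM in CD44s-OE cells, 1.66 and 1.62 CPM in CD44v6-OE and 0.730 and 0.342 CPM in parental cells. Its level was low in every library, and 42.2% of its exon bases are shared with another gene model on the same strand, ENSG00000259529, so part of its reads may be uncounted. Its log2 fold change was 1.31 ± 0.44 in CD44s-OE (adjusted p = 0.0974, under the fold threshold) and 1.63 ± 0.43 in CD44v6-OE (adjusted p = 0.169). IRF7, the factor that amplifies interferon genes, had 81.9 and 16.9 CPM in CD44s-OE cells, 48.2 and 49.1 CPM in CD44v6-OE and 9.82 and 8.97 CPM in parental cells, without passing the test (adjusted p of 0.147 and 0.374). The remaining transducers USP18, PLSCR1, PARP9 and DTX3L had log2 fold changes of 0.48 to 1.97 in CD44s-OE and 0.77 to 2.52 in CD44v6-OE and did not pass.

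Of the 4 genes of ISG15 conjugation, ISG15 itself rose. It had 1606 and 497 CPM in CD44s-OE cells, 911 and 839 CPM in CD44v6-OE and 89.0 and 113 CPM in parental cells. Its lowest OE library was well above its highest parental one, and the change was 3.40 ± 0.60 (log2, adjusted p = 0.0435) in CD44s-OE and 3.15 ± 0.59 (adjusted p = 0.163) in CD44v6-OE. The CD44s-OE change was 2.34 without library 1 and 3.99 without library 2. Without CD44s-OE library 1 or library 2 the CD44v6-OE change was 3.15, in fits that no longer held the distance between the CD44s-OE libraries. HERC5, the ligase that attaches ISG15, had 105 and 24.1 CPM in CD44s-OE cells, 133 and 140 CPM in CD44v6-OE and 9.61 and 9.23 CPM in parental cells, with adjusted p-values of 0.111 and 0.201. The groups did not overlap in HERC5, and the CD44v6-OE libraries were the highest. UBE2L6, the conjugating enzyme, did not pass (adjusted p of 0.51 and 0.746), and HERC6 had 1.23 in CD44s-OE (log2, adjusted p = 0.093, under the fold threshold) and 1.74 in CD44v6-OE (adjusted p = 0.106).

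RNA-directed effectors held the most calls by number, with 5 of 10 in CD44s-OE and 4 in CD44v6-OE. By share they did not stand out in CD44s-OE, where 4 of 8 other effectors were called. The calls include SAMD9L, which had to differ by its filter. IFIT3, which binds IFIT1 and stabilises its grip on viral RNA ends, had 58.8 and 18 CPM in CD44s-OE cells, 90.9 and 89.8 CPM in CD44v6-OE and 1.77 and 2.74 CPM in parental cells. IFIT2, of the same family, had 61.2 and 17.9 CPM in CD44s-OE cells, 112 and 104 CPM in CD44v6-OE and 0.845 and 2.61 CPM in parental cells. In both genes the CD44v6-OE libraries were the highest and no OE library overlapped the parental ones. IFIT3 rose by 4.11 ± 0.61 (adjusted p = 0.0219) in CD44s-OE and 5.36 ± 0.64 (adjusted p = 0.0385) in CD44v6-OE. IFIT2 rose by 4.54 ± 0.87 (adjusted p = 0.0569) in CD44s-OE, and its change in CD44v6-OE was 6.00 ± 0.91 (adjusted p = 0.116). IFIT1, which binds viral RNA that lacks the host cap methylation, had 233 and 38.8 CPM in CD44s-OE cells, 265 and 254 CPM in CD44v6-OE and 5.25 and 8.65 CPM in parental cells, with adjusted p-values of 0.106 and 0.246. The IFIT genes lie side by side on chromosome 10 (hg19), and 8.74% of IFIT2 exon bases are shared with another gene model on the strand.

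SAMD9, a restriction factor for poxviruses, had 23.7 and 15.4 CPM in CD44s-OE cells, 52.0 and 52.8 CPM in CD44v6-OE and 3.46 and 3.74 CPM in parental cells. The 3 groups were separate, and SAMD9 rose by 2.47 ± 0.22 (adjusted p = 0.00114) in CD44s-OE and 3.90 ± 0.23 (adjusted p = 0.000259) in CD44v6-OE. SAMD9L, its neighbour on chromosome 7, had 0.529 and 0.189 CPM in CD44s-OE cells, 2.06 and 2.15 CPM in CD44v6-OE and 0.0384 and 0 CPM in parental cells. With 36 and 224 counts in the OE groups and 2 in parental cells, its ratio was 17.9 (95% counting interval 4.62 to 154) in CD44s-OE and 107 (29.3 to 891) in CD44v6-OE, and both passed the test (adjusted p of 0.031 and 0.0126). ISG20, an exonuclease, had 59.6 and 19.0 CPM in CD44s-OE cells, 38.3 and 32.1 CPM in CD44v6-OE and 4.25 and 3.86 CPM in parental cells, and rose by 3.30 ± 0.50 (adjusted p = 0.0159) and 3.15 ± 0.50 (adjusted p = 0.052). RSAD2 (viperin), which makes a chain-terminating nucleotide, had 6.89 and 0.226 CPM in CD44s-OE cells, 7.34 and 6.63 CPM in CD44v6-OE and 0 counts in parental cells. Its mean was at least 29.5-fold higher in CD44s-OE and at least 57.9-fold higher in CD44v6-OE than the floor of 6 counts per library, without passing the test (adjusted p of 0.232 and 0.441). ADAR, the RNA-editing enzyme, was at 356 and 194 CPM in CD44s-OE cells, 293 and 290 CPM in CD44v6-OE and 271 and 263 CPM in parental cells, the smallest fitted change of the 48 members in CD44s-OE, 0.06 (log2). IFIT5 passed in CD44v6-OE under the fold threshold (0.93, adjusted p = 0.0488), and CMPK2 did not pass.

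Of 9 membrane and trafficking effectors, MX1 and PLAAT4 rose in CD44s-OE and PLAAT4 in CD44v6-OE. PLAAT4, a phospholipid-modifying enzyme, had 5.29 and 3.19 CPM in CD44s-OE cells, 2.38 and 2.90 CPM in CD44v6-OE and 0.0192 and 0 CPM in parental cells. It was nearly silent in parental HCT116, with 1 count in all, so its ratios of 427 in CD44s-OE (95% counting interval 76.3 to 16900) and 269 in CD44v6-OE (47.9 to 10700) are imprecise, and both passed the test (adjusted p of 0.000623 and 0.00225). MX1, a dynamin-like GTPase that traps viral nucleoproteins, had 5.12 and 1.23 CPM in CD44s-OE cells, 3.15 and 3.03 CPM in CD44v6-OE and 0.807 and 0.523 CPM in parental cells. MX1 rose by 2.26 ± 0.58 (adjusted p = 0.0472) in CD44s-OE. Without CD44s-OE library 1 that change was 0.91 and the call was lost. In CD44v6-OE its change was 2.24 ± 0.58 (adjusted p = 0.159). BST2 (tetherin), which holds budding virus at the cell surface, had 60.4 and 5.45 CPM in CD44s-OE cells, 29.2 and 28.8 CPM in CD44v6-OE and 0.749 and 0.845 CPM in parental cells. All 4 OE libraries lay above the parental ones in BST2, with adjusted p-values of 0.125 and 0.347. MX2 was at 3.82 and 0 CPM in CD44s-OE cells, 4.44 and 4.27 CPM in CD44v6-OE and 0 counts in parental cells, so the 2 CD44s-OE libraries fell on either side of the floor. Its mean was at least 15.8-fold higher in CD44s-OE and at least 36.1-fold higher in CD44v6-OE, without passing the test. IFITM2 and IFITM3, close copies of each other, and IFITM1, which shares 37.5% of its exon bases with IFITM2, are uncertain where reads fit more than 1 gene, and none of the 3 passed in HCT116 (adjusted p of 0.227 to 0.886). RTP4, a chaperone of membrane receptors, had 44 and 0 counts in CD44s-OE cells, 38 and 16 in CD44v6-OE and 0 and 1 in parental cells, so all its CD44s-OE counts came from library 1. Its summed counts gave ratios of 43.8 (7.47 to 1770) and 51.7 (8.89 to 2080) that did not pass (adjusted p of 0.142 and 0.337). LGALS3BP passed the adjusted p in CD44s-OE under the fold threshold (0.82, adjusted p = 0.0571).

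Among 8 other effectors, IFI35, IFI44, IFI44L and EPSTI1 rose in CD44s-OE, and IFI44 and IFI44L rose in CD44v6-OE. IFI44 had 15.4 and 2.76 CPM in CD44s-OE cells, 30.3 and 31.6 CPM in CD44v6-OE and 0.0384 and 0.161 CPM in parental cells. It rose by 6.51 ± 1.23 (adjusted p = 0.0474) in CD44s-OE and 8.30 ± 1.23 (adjusted p = 0.0874) in CD44v6-OE, and its parental level lay near the floor. IFI44L, its neighbour on chromosome 1 and the gene with the repeated promoter match shown above, had 54 and 6 counts in CD44s-OE cells, 150 and 165 counts in CD44v6-OE and 0 counts in both parental libraries. Its mean was at least 5.02-fold higher in CD44s-OE (adjusted p = 0.0456) and at least 24.5-fold higher in CD44v6-OE (adjusted p = 0.0407), and CD44s-OE library 2 was at the floor. IFI35 had 67.4 and 29.1 CPM in CD44s-OE cells, 35.1 and 34.9 CPM in CD44v6-OE and 13.9 and 9.17 CPM in parental cells. It rose by 2.08 ± 0.37 (adjusted p = 0.0179) in CD44s-OE, while without library 1 its change was 1.37, under the fold threshold. EPSTI1 had 3.66 and 0.453 CPM in CD44s-OE cells, 2.78 and 2.38 CPM in CD44v6-OE and 0.307 and 0.241 CPM in parental cells, and rose by 2.90 ± 0.84 (adjusted p = 0.0751) in CD44s-OE. Its CD44s-OE library 2 lay close to the parental libraries, and the call was lost without library 1, where the change was 0.75. IFI6 and IFI27, small proteins induced by interferon alpha, also had wide gaps between the CD44s-OE libraries. IFI27 was at 151 and 3.98 CPM in CD44s-OE cells, 44.7 and 43.5 CPM in CD44v6-OE and 0.519 and 0.704 CPM in parental cells, and IFI6 at 544 and 41.7 CPM in CD44s-OE cells, 202 and 225 CPM in CD44v6-OE and 8.11 and 10.3 CPM in parental cells. Neither overlapped its parental libraries, and neither passed the test with all 6 libraries (adjusted p of 0.155 to 0.459). SP100, a nuclear body protein, passed the adjusted p under the fold threshold, with 0.92 in CD44s-OE (adjusted p = 0.052) and 1.36 in CD44v6-OE (adjusted p = 0.0446), and TRIM22 did not pass.

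Set against CD44v6-OE cells, HCT116 CD44s-OE cells had 1 member called lower and 0 called higher, where 0.162% and 0.127% of all genes were (edgeR). The member was DDX60, with a log2 difference of -1.76 ± 0.24 (adjusted p = 0.0221). SAMD9 differed by -1.43 ± 0.20 (adjusted p = 0.0245), under the fold threshold. In both genes each CD44s-OE library was below each CD44v6-OE library. Over the 48 members, 16 lay wholly lower in CD44s-OE and 1 wholly higher, where 20.2% and 20.8% of all genes did, and the median log2 difference was -0.30 against 0.01. At an unadjusted p under 0.05, 7 members were lower and 0 higher, where 1824 of all 17335 genes passed in either direction. DESeq2 called 2 lower and 0 higher, with no count made over all genes. The count depended on which CD44s-OE library entered, and the DDX60 call was also lost without either CD44v6-OE library. Without CD44s-OE library 1 the median log2 difference was -1.87, and without library 2 it was 0.35. Each of these fits held 1 CD44s-OE library, so its spread was taken from the other groups and only sizes are given. Without library 2, SAMD9L differed by -2.02 and DDX60 by -1.45, the latter just under the fold threshold. IFI27 then differed by 1.75, although its 2 CD44s-OE libraries lay on either side of the CD44v6-OE ones.

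The genes around the antiviral set were read from lists of interferons, their receptors, JAK-STAT and IRF factors, upstream sensors and adaptors, and negative regulators. Interferon lambda RNA was present in all 4 HCT116 OE libraries. IFNL1, a type III interferon, had 2986 and 266 counts in CD44s-OE cells, 2226 and 2194 counts in CD44v6-OE and 6 and 48 counts in parental cells. IFNL2 had 1607 and 154, 1346 and 1176, and 0 and 20 counts in the same order of groups, and IFNL3 had 2500 and 296, 1594 and 1494, and 3 and 12 counts. IFNL2 and IFNL3 are near-identical, so the split of reads between them is uncertain, but the sum of the lambda genes behaved alike, with 7093 and 716 counts in CD44s-OE cells, 5166 and 4864 in CD44v6-OE and 9 and 80 in parental cells. The lambda sum and the summed level of the 48 members placed the 4 OE libraries in the same order, with CD44s-OE library 1 highest and library 2 lowest of them. IFNB1, the type I interferon beta, had 70 and 14 counts in CD44s-OE cells, 41 and 64 counts in CD44v6-OE and 0 counts in both parental libraries. Its mean was at least 6.99-fold higher in CD44s-OE (adjusted p = 0.019) and at least 8.16-fold higher in CD44v6-OE (adjusted p = 0.0479). IFNB1 passed the filter through the OE libraries, so it had to differ. No interferon alpha gene had more than 2 counts in any library.

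Of 22 interferon genes, 6 were tested in HCT116. In CD44s-OE 3 rose, IFNB1, IFNL3 (7.57 ± 1.67, adjusted p = 0.0882) and IFNE, and in CD44v6-OE IFNB1 rose. All 3 had under 10 counts in at least 1 parental library and passed the filter through the OE libraries, so they had to differ. IFNE, a type I interferon of epithelia, had 28 and 65 counts in CD44s-OE cells, 4 and 8 counts in CD44v6-OE and 10 and 8 counts in parental cells, so it was high in CD44s-OE alone and higher in library 2, and it rose there by 2.36 ± 0.63 (adjusted p = 0.0503). Of 8 upstream sensors and adaptors tested, RIGI rose in both OE groups and TLR3 in CD44v6-OE. RIGI, the cytoplasmic receptor for viral RNA ends, had 65.0 and 25.5 CPM in CD44s-OE cells, 105 and 107 CPM in CD44v6-OE and 5.92 and 7.2 CPM in parental cells. It rose by 2.81 ± 0.39 (adjusted p = 0.0099) in CD44s-OE and 4.05 ± 0.41 (adjusted p = 0.0129) in CD44v6-OE, with all 3 groups separate. The CD44s-OE change of RIGI was 2.00 without library 1 and 3.31 without library 2, and that of IFNL3 was 5.26 and 8.40. TLR3, the endosomal receptor for double-stranded RNA, rose by 2.27 ± 0.37 (adjusted p = 0.0301) in CD44v6-OE, and STING1 passed in CD44s-OE under the fold threshold (0.67, adjusted p = 0.0314).

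Receptors, kinases and negative regulators of the pathway had no calls in HCT116. Of 6 receptors, 9 JAK-STAT and IRF factors and 6 negative regulators tested, 0 were called in either direction in either OE group (edgeR). At an unadjusted p under 0.05, CD44s-OE had 1 receptor higher, 3 JAK-STAT and IRF factors higher and 1 lower, and 2 negative regulators lower. CD44v6-OE had 1 receptor higher, 1 JAK-STAT or IRF factor higher, and 1 negative regulator higher and 1 lower. That p was reached in either direction by 4372 (CD44s-OE) and 1933 (CD44v6-OE) of all 17335 genes. IFNAR1 had 25.9 and 29.7 CPM in CD44s-OE cells, 28.5 and 27.0 CPM in CD44v6-OE and 29.2 and 29.6 CPM in parental cells, with a log2 fold change of -0.05 ± 0.15 in each OE group. IFNAR2 had 5.25 and 3.59 CPM in CD44s-OE cells, 3.6 and 3.66 CPM in CD44v6-OE and 3.59 and 3.56 CPM in parental cells. JAK1 was at 48.8 and 56.5 CPM in CD44s-OE cells, 60.9 and 61.6 CPM in CD44v6-OE and 73.0 and 69.5 CPM in parental cells, which gave -0.41 ± 0.14 (log2, adjusted p = 0.101) for CD44s-OE. TYK2 (0.58, adjusted p = 0.0486) and JAK2 (0.82, adjusted p = 0.069) passed the adjusted p in CD44s-OE under the fold threshold.

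**Figure D4:**
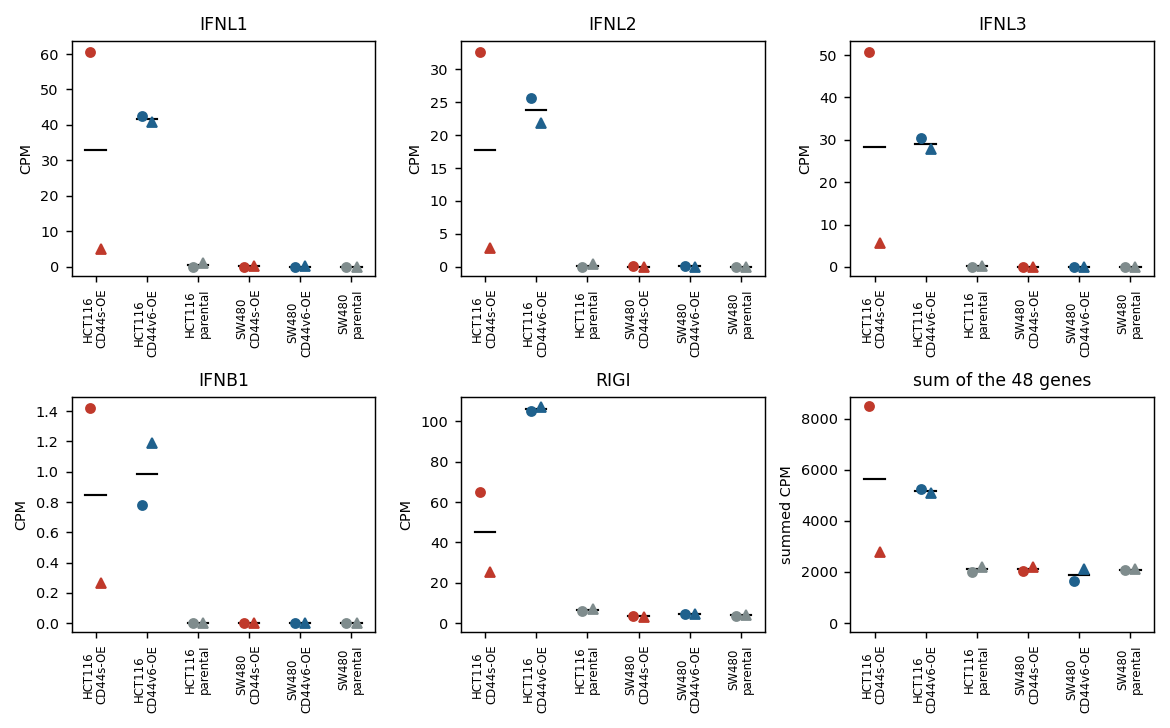
CPM of IFNL1, IFNL2, IFNL3, IFNB1 and RIGI and the summed CPM of the 48 antiviral genes in the 6 groups. Circles are library 1, triangles library 2 and the black line their mean. In HCT116 the CD44v6-OE libraries lie together, CD44s-OE library 1 lies well above library 2, and in SW480 the interferon genes lie at or near 0.

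Markers of other cell types were read beside these changes in HCT116. The leukocyte list (14 genes) summed to 9.72 and 5.25 CPM in CD44s-OE cells, 5.57 and 6.52 CPM in CD44v6-OE and 1.90 and 1.93 CPM in parental cells. ITGAX, an integrin of myeloid cells and the 1 gene called on the list, made most of that difference, with 7.54 and 3.45 CPM in CD44s-OE cells, 2.86 and 3.88 CPM in CD44v6-OE and 0.615 and 0.342 CPM in parental cells. PTPRC (CD45), which defines leukocytes, had 0 counts in all 6 HCT116 libraries. The fibroblast list (8 genes) summed to 33.8 and 56.2 CPM in CD44s-OE cells, 35.2 and 31.6 CPM in CD44v6-OE and 19.5 and 14.2 CPM in parental cells, with COL3A1 called higher in both OE groups and PDGFRB called lower in CD44s-OE. On the colon epithelial list, CDH1 (E-cadherin) was called lower in CD44s-OE. The part of these lists in the result was not tested.

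SW480 cells showed a much smaller set of changes. In cells labelled CD44s-OE 5 of the 48 members rose and 0 fell, where 1.39% and 0.639% of all genes did, and in cells labelled CD44v6-OE 2 rose and 0 fell, where 0.405% and 0.0114% did (edgeR, 17539 genes). The test covered 42 members, since IFI44, IFI44L, RSAD2, RTP4, SAMD9L and TRIM22 had too few counts. Median log2 fold changes were 0.22 and 0.20, against 0.00 and -0.01 over all genes. At an unadjusted p under 0.05, 14 members were higher and 1 was lower with CD44s-OE, while for CD44v6-OE the numbers were 12 and 0. Of all 17539 genes, 2786 and 1527 passed that p in either direction. DESeq2 called 6 and 5 members higher and 0 lower, with no count made over all genes. The OE libraries lay wholly above the parental ones for 26 and 25 of the 48 members, and wholly below for 4 and 3, where 4 of those above in each comparison (SAMD9L, RTP4, IFI44 and TRIM22) were not tested. Over all tested genes, 22.7% and 21.8% lay wholly above and 19.7% and 16.6% wholly below. All 5 called members had under 10 counts in at least 1 parental library and passed the filter through the OE libraries, so they had to differ. Of the 33 members with at least 10 counts in both parental libraries, 0 were called in either comparison, with medians of 0.07 and 0.10. Marker lists moved in SW480 as well. The colon epithelial list summed to 8295 and 10149 CPM in CD44s-OE cells, 15157 and 14089 CPM in CD44v6-OE and 19023 and 17385 CPM in parental cells, with CDH1, CLDN7 and EPCAM called lower in CD44s-OE. The leukocyte list summed to 5.15 and 6.78 CPM in CD44s-OE cells, 5.12 and 4.74 CPM in CD44v6-OE and 3.38 and 2.05 CPM in parental cells, with LYZ (lysozyme) called higher in CD44s-OE. The fibroblast list summed to between 2.09 and 5.19 CPM, with LUM (lumican) called higher in both OE groups. PTPRC had 2 counts in CD44s-OE library 1 and 0 in the other 5 SW480 libraries, and the part of these lists in the result was not tested.

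HERC5, the ISG15 ligase, rose in both SW480 OE groups. It had 3.17 and 3.51 CPM in CD44s-OE cells, 1.87 and 1.46 CPM in CD44v6-OE and 0.199 and 0.362 CPM in parental cells. The change was 3.53 ± 0.42 (adjusted p = 0.00182) in CD44s-OE and 2.52 ± 0.42 (adjusted p = 0.0377) in CD44v6-OE, and the 3 groups did not overlap. SAMD9 had 5.54 and 4.48 CPM in CD44s-OE cells, 2.57 and 1.83 CPM in CD44v6-OE and 0.547 and 0.161 CPM in parental cells, with changes of 3.84 ± 0.50 (adjusted p = 0.00276) and 2.65 ± 0.49 (adjusted p = 0.0598). In HERC5 and SAMD9 the CD44s-OE libraries were the highest of SW480, whereas in HCT116 the CD44v6-OE libraries were. IFIT1 rose in CD44s-OE, with 1.48 and 1.34 CPM against 0.149 and 0.121 CPM in parental cells (3.36 ± 0.62, adjusted p = 0.0171). IFIT2 rose in CD44s-OE, with 2.13 and 1.32 CPM against 0.0995 and 0.462 CPM in parental cells (2.56 ± 0.61, adjusted p = 0.0522). PLAAT4 rose in CD44s-OE, with 0.729 and 1.19 CPM against 0.0995 and 0.161 CPM in parental cells (2.83 ± 0.62, adjusted p = 0.0352). In CD44v6-OE these 3 genes lay between the other groups or overlapped CD44s-OE, at 1.07 and 0.393 CPM for IFIT1, 1.72 and 1.05 CPM for IFIT2 and 0.557 and 0.393 CPM for PLAAT4. The CD44s-OE calls depended on single libraries, since only HERC5 and SAMD9 were kept without CD44s-OE library 2, and IFIT1 and IFIT2 were lost without library 1. All were kept without any other library. Both CD44v6-OE calls were lost without either CD44s-OE library or without CD44v6-OE library 1, and more members were called higher there without either parental library. The share of all genes called higher fell in the fits that lost calls and rose in both comparisons without either parental library.

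**Figure D5:**
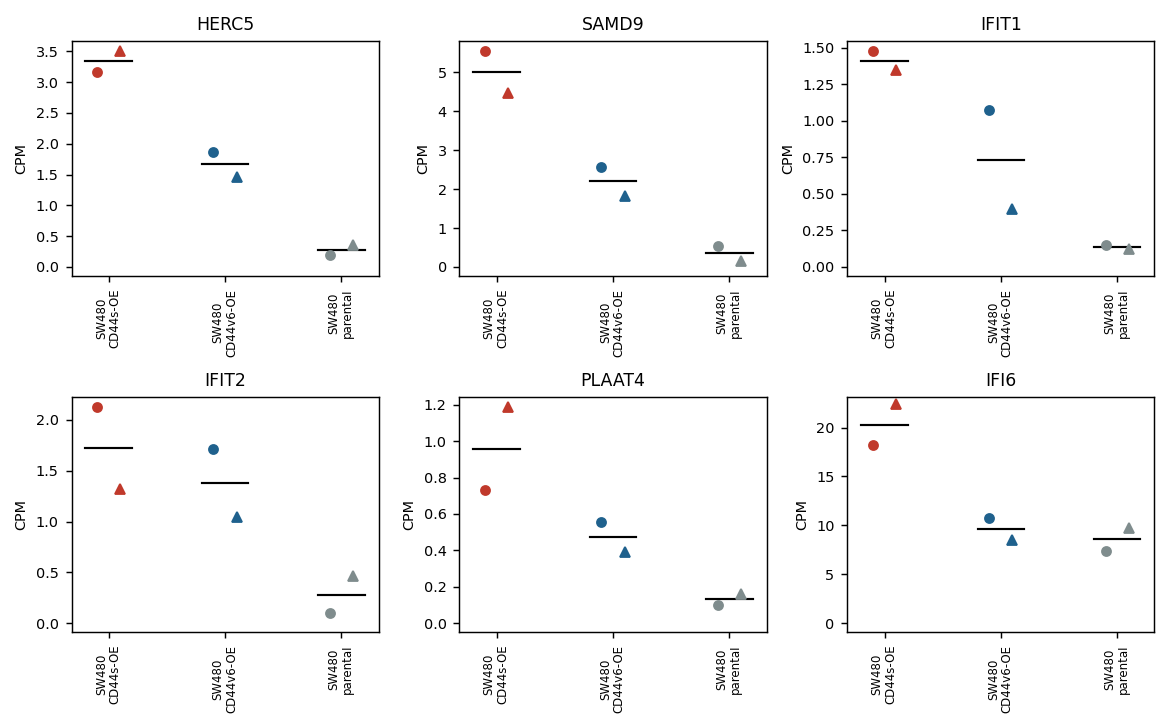
CPM of HERC5, SAMD9, IFIT1, IFIT2, PLAAT4 and IFI6 in the 3 SW480 groups. Circles are library 1, triangles library 2 and the black line their mean, each panel with its own scale from 0. Both CD44s-OE libraries lie above both parental libraries in all 6 panels.

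A few better expressed members of SW480 passed the adjusted p under the fold threshold. UBE2L6, the ISG15 conjugating enzyme, had 18 and 20.5 CPM in CD44s-OE cells, 18.9 and 17.6 CPM in CD44v6-OE and 9.87 and 8.94 CPM in parental cells, with log2 fold changes of 1.02 (adjusted p = 0.0174) and 0.93 (adjusted p = 0.0885). IFI6 had 18.2 and 22.4 CPM in CD44s-OE cells, 10.7 and 8.54 CPM in CD44v6-OE and 7.39 and 9.77 CPM in parental cells, so CD44s-OE alone was apart (1.23, adjusted p = 0.0164). BST2 had 53.8 and 65.5 CPM in CD44s-OE cells, 30.1 and 24.6 CPM in CD44v6-OE and 40.4 and 30.1 CPM in parental cells. IFI27 had 66.4 and 99.2 CPM in CD44s-OE cells, 40.4 and 38 CPM in CD44v6-OE and 49.9 and 48.6 CPM in parental cells. Both passed the adjusted p in CD44s-OE, with log2 fold changes of 0.75 (adjusted p = 0.0787) and 0.74 (adjusted p = 0.0755), while their CD44v6-OE libraries were not above the parental ones. Between the isoforms in SW480, CD44s-OE had 0 members called higher and 0 called lower, where 0.291% and 0.730% of all genes were. At an unadjusted p under 0.05, 6 were higher and 2 lower, where 1894 of all 17539 genes passed in either direction. DESeq2 also called 0 members in each direction. Under the fold threshold, IFI6 (1.09, adjusted p = 0.0395), IFI27 (1.09, adjusted p = 0.0196) and BST2 (1.14, adjusted p = 0.0186) were higher in CD44s-OE. ISG15 was at 41.6 and 60.9 CPM in CD44s-OE cells, 62.0 and 57.9 CPM in CD44v6-OE and 82.3 and 51.0 CPM in parental SW480, and the 3 groups overlapped.

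The surrounding genes had no calls in SW480. IFNL1 reached 16 counts at most, IFNB1 had 0 counts in all 6 libraries, and none of the 22 interferon genes had enough counts for a test. Of 6 receptors, 10 JAK-STAT and IRF factors, 8 upstream sensors and adaptors and 6 negative regulators, 0 were called in either OE group (edgeR). At an unadjusted p under 0.05 CD44s-OE had 1 JAK-STAT or IRF factor and 1 negative regulator lower and CD44v6-OE had 0. That p was reached in either direction by 2786 and 1527 of all 17539 genes. RIGI was at 3.73 and 2.88 CPM in CD44s-OE cells, 4.52 and 4.70 CPM in CD44v6-OE and 3.61 and 4.16 CPM in parental cells. The CD44v6-OE libraries lay wholly above the parental ones in RIGI, which did not pass the test.

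Whether the change on overexpression differed between the lines was tested as the difference of log2 fold changes, SW480 minus HCT116, with calls below an adjusted p of 0.1 among 19567 genes. For CD44s-OE, 4 of the 48 members had a smaller change in SW480 and 0 a larger one, where 2.27% and 1.65% of all genes did. They were ISG15 (-3.77, adjusted p = 0.0361), IFIT3 (-3.23, adjusted p = 0.0419), MX1 (-2.65, adjusted p = 0.0591) and PLAAT4 (-5.59, adjusted p = 0.0158). For CD44v6-OE, 2 members had a smaller change in SW480 and 0 a larger one, where 0.199% and 0.210% of all genes did, namely IFIT3 (-5.26, adjusted p = 0.0224) and PLAAT4 (-5.93, adjusted p = 0.0445). At an unadjusted p under 0.05, 20 and 27 members were lower, and 1 and 0 higher. No count over all genes was made at that p for these differences. PLAAT4 rested on 1 count in parental HCT116 and passed the filter through the OE libraries. It thus had to differ in HCT116, and the size of its line difference is not well set. With all libraries the median difference of the members was -1.55 for CD44s-OE and -2.30 for CD44v6-OE. Without HCT116 CD44s-OE library 1 the medians were -0.46 and -2.30, and without HCT116 CD44s-OE library 2 they were -2.19 and -2.30. The number of members that differed also depended on the library left out. For CD44s-OE, some members had a larger change in SW480 without HCT116 CD44s-OE library 1 or SW480 parental library 1.

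The parental lines differed in members of this set in both directions, as they did over all genes. The SW480 libraries lay wholly above for 16 of the 48 members and wholly below for 20. Over all tested genes 37.4% and 38.6% did, so these counts were close to those of any genes. In parental SW480, 11 members were higher and 11 lower than in parental HCT116, where 16.1% and 12.9% of all genes were by the same thresholds (edgeR). The higher members were the sensors OAS1 and OAS2, the exonuclease ISG20, the membrane effectors IFITM1, IFITM2, BST2, MX1, MX2 and PLAAT4, and EPSTI1 and IFI27. BST2 had 40.4 and 30.1 CPM in SW480 and 0.749 and 0.845 CPM in HCT116, a difference of 5.5 ± 1.11 (log2, adjusted p = 0.00516). MX1 had 9.13 and 9.79 CPM in SW480 and 0.807 and 0.523 CPM in HCT116, a difference of 3.86 ± 0.51 (adjusted p = 2.83e-05). Of the 9 membrane and trafficking effectors, 6 were thus higher in SW480 and 0 lower. Among these, PLAAT4 had 4 to 8 counts in parental SW480 and 0 to 1 in parental HCT116, near the floor, and passed the filter through the OE libraries. MX2 had 0 counts in parental HCT116, and IFITM1 and IFITM2 share exon bases. The lower members were OASL, DDX60, DDX60L, USP18, UBE2L6, HERC5, IFIT1, IFIT2, IFIT5, SAMD9 and TRIM22. DDX60L had 1.44 and 0.723 CPM in SW480 and 18.8 and 16.9 CPM in HCT116 (-4.02 ± 0.34, adjusted p = 2.36e-07), and HERC5 had 0.199 and 0.362 CPM in SW480 and 9.61 and 9.23 CPM in HCT116 (-4.99 ± 0.77, adjusted p = 0.000685). ISG20 was at 34.8 and 4.86 CPM in the 2 parental SW480 libraries, and its call was lost without the first. The OAS1 and ISG20 calls were also lost without most other single libraries. The 5 members called in SW480 CD44s-OE held 4 that were lower in parental SW480 than in parental HCT116 and 1, PLAAT4, that was higher. All 5 passed the filter through the OE libraries, and both comparisons used the same parental SW480 libraries. A low parental level was thus tied to the call, and the split shows no link between the 2.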

How the data were processed

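PolyA RNA of the 12 libraries was sequenced in pairs on a BGI DNBSEQ platform, aligned by the authors with STAR 2.7.9a to hg19 and counted with featureCounts (Subread 2.0.3) over GENCODE exons with the reverse-strand setting. The deposited counts are reads per gene and are not normalized. The authors also deposited variance-stabilised values on a log2-like scale, made with DESeq2 1.30.1, of which only the gene symbols were used (28270 genes with a symbol). Library depth and the floor of 6 counts, which limits what a count of 0 can show, are given with the samples.

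Symbols were joined to counts by Ensembl identifier, and all 48 matched. CPM values used TMM library sizes, and RPKM was CPM per kilobase of summed exons. Each line was fitted in R 4.3.3 with edgeR 4.0.16 (filterByExpr, robust glmQLFit, glmQLFTest), with 1 term per group, over its 6 libraries. Differences between lines and between parental cells were fitted over all 12 libraries. P-values were adjusted by Benjamini-Hochberg over all genes tested. Adjusted p-values and the ± values (SE of the log2 fold change) in the text come from these edgeR fits unless another tool is named. A call needed an adjusted p below 0.1 and, except for differences between lines, a log2 fold change beyond 1.5, after the thresholds in the study's methods. Genes with 0 parental counts were set against the floor, and genes with 1 to 3 parental counts were given as ratios with exact counting intervals. The fit was tested on simulated data with known changes. Alternatives were DESeq2 1.42.0, other filters, thresholds and normalizations, a replicate block and each library left out.

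The members and lists were chosen with earlier results of these data known. Values per library were given for members called within a line (where over 12 were called, the 12 with the largest change), for STAT2, IRF9 and the highest and lowest members per kilobase. Those of further members, such as OAS1, OASL, IRF7, BST2, IFI27, ADAR and RSAD2, were added after their values were seen.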

Additional observations from a re-analysis of the deposited data

Results flagged for a closer look

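The change on overexpression differed between the lines for 4 members in CD44s-OE cells by a test of the difference itself (edgeR, SW480 minus HCT116, log2), namely ISG15 (-3.77, adjusted p = 0.0361), IFIT3 (-3.23, adjusted p = 0.0419), MX1 (-2.65, adjusted p = 0.0591) and PLAAT4 (-5.59, adjusted p = 0.0158). In CD44v6-OE cells it differed for IFIT3 (-5.26, adjusted p = 0.0224) and PLAAT4 (-5.93, adjusted p = 0.0445). In each case the change was smaller in SW480 in the fit with all libraries. Without HCT116 CD44s-OE library 1 or SW480 parental library 1, CD44s-OE also had members with a larger change in SW480. PLAAT4 had 1 count in the 2 parental HCT116 libraries, so its size is poorly set. The MX1 difference was lost without HCT116 CD44s-OE library 1 (-1.29), while that of ISG15 was kept without it (-2.7). Both were lost without either HCT116 parental library, either SW480 CD44s-OE library or SW480 parental library 1. MX1 was also lost without either HCT116 CD44v6-OE library. IFIT3 in CD44s-OE was lost without either HCT116 parental library, SW480 CD44s-OE library 2 or either SW480 parental library. In CD44v6-OE, IFIT3 was lost without HCT116 parental library 1 or SW480 CD44v6-OE library 1, and PLAAT4 without either HCT116 CD44v6-OE library, either HCT116 parental library, SW480 CD44v6-OE library 1 or SW480 parental library 2. PLAAT4 passed the filter through the OE libraries, so its call in CD44s-OE, kept whichever library was left out, adds no support.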

How the results depend on the processing

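Numbers of called members depended on the processing, while no call of the fits with all libraries changed sign. Some members called only with a library left out went the other way, between lines as well as between isoforms. The share of all genes called moved with the library left out as well. Under settings other than leaving out a library, calls were counted for the members only, with no share of all genes beside them. With each library left out in turn (an arm with 1 library is then assumed to vary like the other groups), HCT116 CD44s-OE against parental cells gave 3 to 36 members higher, CD44v6-OE against parental 3 to 35, and CD44s-OE against CD44v6-OE 0 to 24 lower and 0 to 1 higher. In SW480 these were 2 to 7 higher and 0 to 1 lower in CD44s-OE, 0 to 5 higher and 0 to 1 lower in CD44v6-OE, and 0 to 1 higher between the isoforms. The change differed between lines for 1 to 28 members (CD44s-OE) and 0 to 23 (CD44v6-OE). Against parental HCT116, 27 members rose in CD44s-OE and 28 in CD44v6-OE with DESeq2, 28 and 25 without robust fitting, and 34 in CD44v6-OE when only the 4 libraries compared entered. DESeq2 called 5 in SW480 CD44v6-OE, and the 4-library fit called 0 there. Without a filter on low counts, 14 rose in HCT116 CD44v6-OE, 8 in SW480 CD44s-OE and 6 in SW480 CD44v6-OE, 3 were lower between the HCT116 isoforms, and 11 (CD44s-OE) and 10 (CD44v6-OE) differed between lines. Without a minimum fold change, 20 rose in HCT116 CD44s-OE and 9 in SW480 CD44s-OE, and between isoforms 2 were lower in HCT116 and 3 higher in SW480. A mean count of at least 50 left 3 in SW480 CD44s-OE, and an adjusted p under 0.05 left 1 in SW480 CD44v6-OE. DESeq2 and halved counts each gave 2 members lower between the HCT116 isoforms.

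The main fits did not treat same-numbered libraries as pairs, and the labels do not say whether the numbers mark pairs. Deviations of same-numbered libraries correlated at 0.255, 0.089 and 0.065 in HCT116 and -0.142, -0.241 and 0.124 in SW480, which cannot settle this. With a replicate block, 2 members were lower between the HCT116 isoforms and 4 differed between lines in CD44v6-OE. Of 319 values of single called genes under other settings, 294 kept direction and call, 25 lost the call and 0 changed sign. With 1 library left out, 161 of 252 kept the call, 91 lost it and 0 changed sign. Depth limited RSAD2, MX2, IFI44L, IFI16, RTP4, SAMD9L and PLAAT4 in parental HCT116, and the called members in parental SW480. On the gene's strand alone, 42.6% of member promoters held the ISRE letters, against 1.69% of all.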
